A study of Mus musculus with 4 samples.

Results

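Capillary-type endothelial cells of the mouse mitral valve were selected by their transcripts: 182 of 776 cells that passed the quality limits in the mitral valve libraries, out of 954 cells deposited for the valve and 2160 in the whole series. A cell counted as a capillary cell when at least 2 of Fabp4, Cd36 and Gpihbp1 and at least 2 of 7 endothelial genes (Cdh5, Pecam1, Emcn, Egfl7, Ecscr, Esam and Npr3) each had a unique molecular identifier (UMI, a tag that marks 1 captured transcript). Cells needed at least 500 genes and at most 10% of UMIs from mitochondrially encoded genes. The library of the fetal stage E16.5 (days after conception) held 56 capillary cells, the first library of newborn pups (postnatal day 0, P0) held 85 and the second 41. Other endothelial cells, with at least 2 of the 7 endothelial genes but fewer than 2 of the 3 capillary genes, numbered 78, 79 and 48 in the same order, and the remaining 389 cells had fewer than 2 endothelial genes.

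All libraries came from C57BL/6 mice in which Tie2-Cre recombines a Rosa26 tdTomato reporter, so that cells of endothelial and endocardial descent, and Tie2-expressing blood cells, carry red fluorescence in both stages. Mitral valves were microdissected, digested and sorted for tomato, and material of at least 60 embryos was pooled per stage, per the labels. There was 1 library at E16.5 and 2 at P0, and the atrioventricular canal at E9.5 served only as a background check. The reporter transcript is not in the gene tables. No label says whether the P0 libraries came from separate pools of pups. The error behind each p-value comes from differences between these 2 libraries, in large part pooled over genes, and may thus be technical.

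Capillary endothelium of the heart takes up fatty acids for the muscle around it. Lipoprotein lipase (Lpl) splits triglycerides in the vessel lumen and is held on the capillary surface by Gpihbp1, Cd36 carries fatty acids across the membrane, and Fabp4 and Fabp5 bind them inside the cell. Tcf15 and Meox2 are transcription factors of cardiac endothelium that drive this uptake, and Angptl4 inhibits Lpl. The leaflets of a mature mouse mitral valve are largely free of vessels and are covered by valve endocardium, marked by Npr3, Nfatc1 and Cytl1, whereas coronary vessels run through the adjoining muscle and the valve base.

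Fabp4 lies on chromosome 3 (10204088 to 10208576), Cd36 on chromosome 5 (17781690 to 17888801) and Gpihbp1 on chromosome 15 (75596628 to 75599481), in GRCm38/mm10 coordinates of the GENCODE M21 gene models. Levels are given as UMIs per 10000 UMIs of the summed cells of a class in a library. Because the rule chose the cells by them, the levels of the 3 genes are a description. Fabp4 stood at 74.5 at E16.5, 82.8 in P0 replicate 1 and 76.7 in P0 replicate 2, against 5.76, 2.67 and 3.17 in other endothelial cells. Cd36 stood at 7.01, 14.4 and 15.2, against 0.0908, 0.487 and 0.602. Gpihbp1 stood at 13.8, 8.82 and 9.06, against 0.182, 0.0195 and 0.16. Fabp4 was thus even across the libraries, Cd36 lowest at E16.5 and Gpihbp1 highest there. Cells outside both endothelial classes held 1.16, 1.16 and 0.93 Fabp4 UMIs per 10000, the level to set beside the weak Fabp4 signal of the other endothelial cells.

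All 3 capillary genes were found in 35, 68 and 35 of the cells, and exactly 2 in 21, 17 and 6. Among the latter, Cd36 was the missing gene in 15 cells at E16.5, 6 in P0 replicate 1 and 4 in P0 replicate 2, Gpihbp1 in 6, 10 and 2, and Fabp4 in 0, 1 and 0. Cells just inside the limit held 44.6, 37 and 25.3 Fabp4 UMIs per 10000, and the 30, 28 and 21 endothelial cells just outside it, with 1 of the 3 genes, held 14.1, 7.67 and 7.61. Single cells ranged widely, from 1.54 to 206.8 Fabp4 UMIs per 10000 at E16.5 with a median of 78.4. Medians at P0 were 77.7 and 89.9.

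The fourth marker attached to the name, the water channel Aqp1, did not set these cells apart. Its level in capillary cells was 1.91 at E16.5, 2.02 in P0 replicate 1 and 1.69 in P0 replicate 2, below the 2.31, 2.83 and 2.45 of other endothelial cells in the same libraries. More capillary cells than other endothelial cells had an Aqp1 UMI (33.9, 52.9 and 51.2% against 17.9, 34.2 and 45.8%), and 8.79, 14.3 and 4.55% of non-endothelial cells had one. With every cell thinned to 1000 UMIs the shares were 14.3, 12.9 and 9.76% against 11.8, 17.7 and 18.8%, so the order held at E16.5 and turned at P0. Capillary cells were the deeper class, with a median of 3100 (E16.5), 6702 and 5208 UMIs per cell against 2448, 4894 and 4164 in other endothelial cells and 2137, 4460 and 4310 in non-endothelial cells. Of a list of 20 capillary genes that includes Aqp1, described below, 11 were higher in capillary cells in every library and 0 lower. Among the 11, Car4 and Timp4 rested on 2 and 1 UMIs at E16.5. The capillary name is used for the cells that passed the rule.

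Summed over the cells, the capillary class held 194103 UMIs at E16.5, 684817 in P0 replicate 1 and 319982 in P0 replicate 2. The E16.5 library differed from both P0 libraries in every cell class. Ribosomal protein genes took 3127 of 10000 UMIs in its capillary cells against 2141 and 2050, and the nuclear RNA Malat1 took 3.55 against 232 and 243; in other endothelial cells Malat1 took 6.9 against 487 and 483. The barcode lists of the P0 libraries shared 4 barcodes. A doublet caller marked 6, 2 and 1 of the kept cells, of which 0, 1 and 1 were capillary cells. At least 5 UMIs of interstitial, pericyte, cardiomyocyte or macrophage marker genes were found in 8 of 56, 17 of 85 and 11 of 41 capillary cells, and in 25 of 78, 49 of 79 and 25 of 48 other endothelial cells.

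In all 3 libraries the capillary cells held more RNA of surface and signalling genes of capillaries than other endothelial cells, and less of valve surface genes and of the valve interstitial genes Postn and Col3a1. Of 10101 genes with at least 10 UMIs in the 2 classes, 268 (2.65%) were at least 2-fold higher in capillary cells in 3 of 3 libraries and 448 (4.44%) at least 2-fold lower. The rule chose the cells from the same UMIs, so these counts are described without a test, and 111 and 190 of the genes rested on 3 or fewer UMIs in some library. The matricellular protein Sparcl1 led the higher genes at 6.9, 7.05 and 6.69 UMIs per 10000 against 0.908, 0.585 and 0.321, which is 7.61-fold (95% interval 4.73 to 12.9, counting error only), 12.1-fold (8.34 to 18.1) and 20.8-fold (10.4 to 48.9).

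Rgcc, a regulator of the cell cycle that is common in capillary endothelium, stood at 3.5, 2.1 and 2.5 in capillary cells and at 0.408, 0.039 and 0 in other endothelial cells. Its ratio was 8.58 at E16.5 (4.26 to 19.6) and 53.9 in P0 replicate 1 (14.7 to 449.6), and at least 20.8 in P0 replicate 2, where no other endothelial cell held a UMI (bound at 3 UMIs for that class). Among GPI-anchored surface proteins, Ly6c1 stood at 2.88, 2.04 and 3.25 against 0.272, 0.156 and 0.361, Ly6a at 2.01, 1.72 and 1.72 against 0.181, 0.273 and 0.0802, and Ly6e at 3.09, 4.82 and 3.69 against 0.227, 0.468 and 0.12. Ly6c1 was thus 10.6-fold (4.58 to 30.1), 13.1-fold (6.47 to 31) and 9-fold (4.56 to 20.2) higher. The G protein subunit Gng11 was far more abundant, at 29.8, 15.6 and 16 UMIs per 10000, and its ratio was even across the libraries at 3.59, 3.54 and 3.65. Tspan13, a tetraspanin, was 9.73-, 3.42- and 5.32-fold higher and the retinol-binding protein Rbp7 4.21-, 5.67- and 3.18-fold. Tmem88 stood at 5.15, 1.67 and 1.34 against 0.499, 0.312 and 0.12, and Tmem255a at 1.08, 1.14 and 1.31 against 0, 0.039 and 0.

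Of 20 listed capillary genes, 11 were at least 2-fold higher in 3 of 3 libraries and 0 lower, against 2.65 and 4.44% of all genes described. The caveola protein Cav1 was 2.78-, 3.53- and 3.54-fold higher, and the VEGF receptor Kdr 2.34-, 3.94- and 4.86-fold. Btnl9 stood at 0.567, 0.993 and 0.844 against 0.0908, 0.078 and 0.0401. Carbonic anhydrase Car4 and the protease inhibitor Timp4 had no UMI in any other endothelial cell. Both are among the 11, because any UMI against 0 counted as higher. In capillary cells Car4 stood at 0.643 and 0.969 at P0, at least 11- and 8.05-fold higher, and Timp4 at 0.511 and 1.06, at least 8.74- and 8.83-fold higher, whereas at E16.5 they had 2 and 1 UMIs, too few for a ratio. The other VEGF receptor, Flt1, was not separated, at 1.44, 2.07 and 2.09 against 0.862, 2.28 and 2.73.

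Genes of lipid handling other than those of the rule were split. Of 19 listed genes, 16 could be described. Of these, 6 were at least 2-fold higher in 3 of 3 libraries and 0 lower, against 2.65 and 4.44% of all genes described. Tcf15 stood at 1.39, 4.37 and 4.69 UMIs per 10000 against 0.136, 0.468 and 0.201, which is 10.2-fold (3.14 to 52.6), 9.33-fold (6.15 to 14.8) and 23.4-fold (9.79 to 73). The monoglyceride lipase Mgll stood at 1.49, 2.91 and 2.81 against 0.136, 0.526 and 0.201. Meox2 reached 1.26 and 0.5 at P0 against 0.0195 and 0, and had 1 UMI at E16.5. Angptl4, Pparg and Rbp7 were the other higher members. Angptl4 and Pparg also had 1 UMI each at E16.5, so for these genes and Meox2 the difference there rests on 1 UMI. Lpl itself was 2.87- and 3.44-fold higher than in other endothelial cells at P0, but cells outside both classes held as much of it: 2.02 and 1.66 in capillary cells against 2.16 and 2 there. Fabp5, the second fatty acid binding protein, went the other way, at 35.2, 22.1 and 18.3 against 55.4, 31.9 and 32.1. The fatty acid transport genes Slc27a1, Slc27a3 and Slc27a4 had 8 or fewer UMIs in every library of capillary cells.

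**Figure D1:**
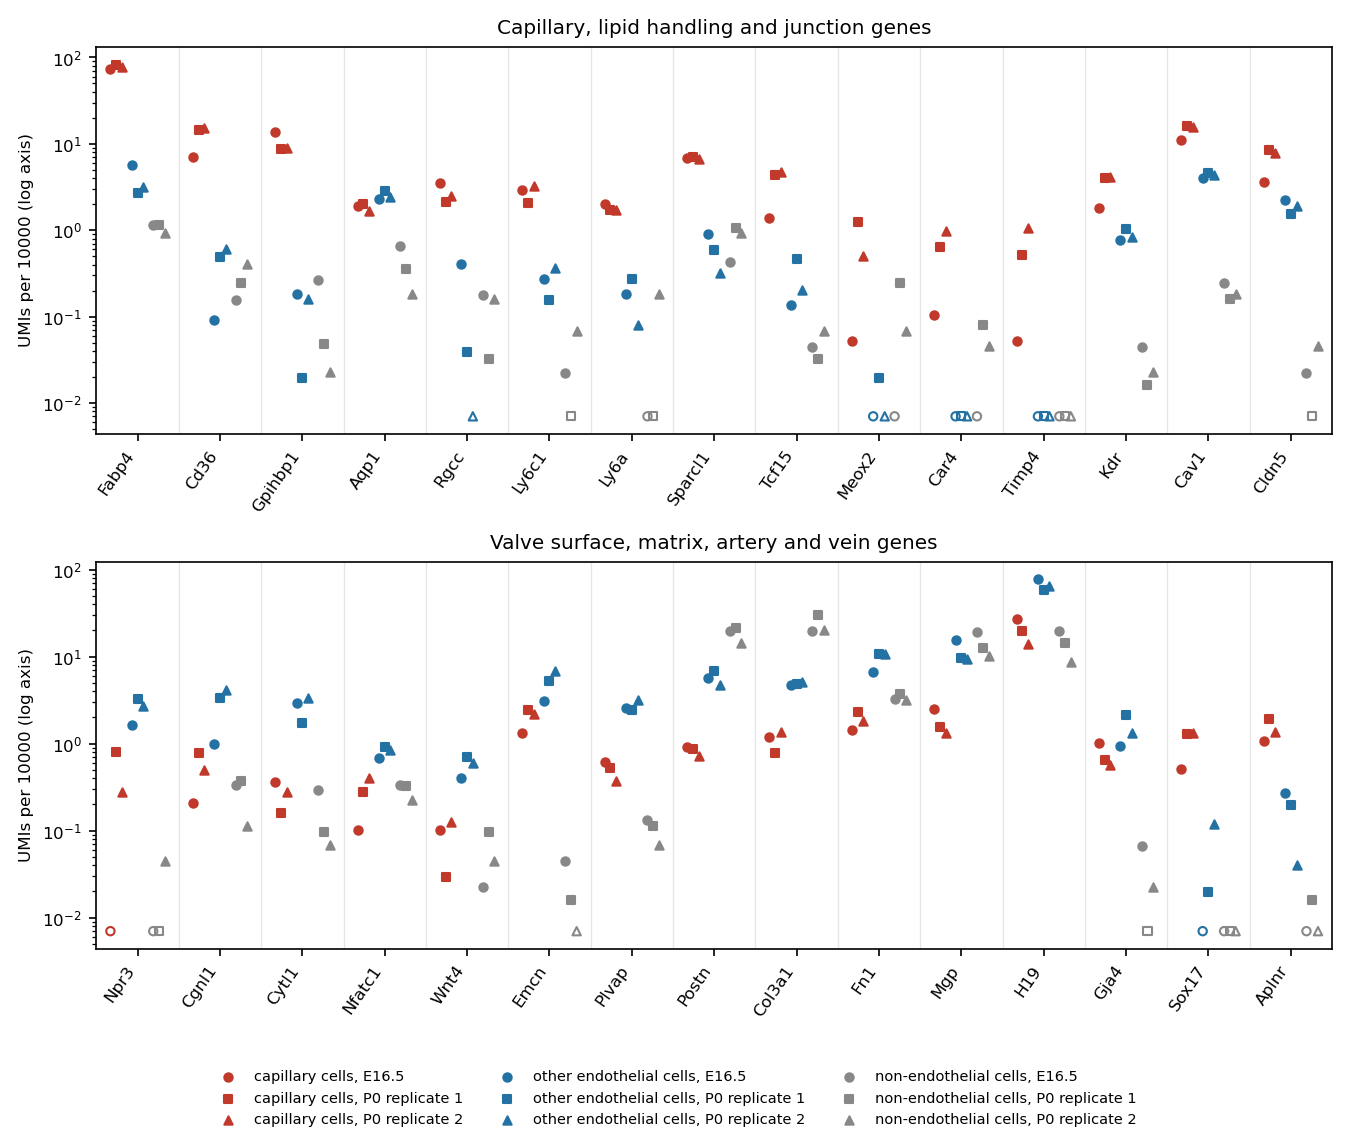
UMIs per 10000 (log axis) for 15 capillary, lipid handling and junction genes (top) and 15 valve surface, matrix, artery and vein genes (bottom) in capillary (red), other endothelial (blue) and non-endothelial cells (grey) of each library; open symbols at the bottom of the axis stand for 0 UMIs. Fabp4, Cd36 and Gpihbp1, which chose the cells, are at least 12.9-fold above other endothelial cells, Aqp1 of capillary cells lies just below that of other endothelial cells, and Car4 and Timp4 have no UMI in other endothelial cells.

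Valve surface genes were low in capillary cells. Of 12 listed endocardial and valve surface genes, 11 were at least 2-fold lower in capillary cells in 3 of 3 libraries, including Npr3, which is 1 of the 7 endothelial genes of the rule, and 0 were higher, against 4.44 and 2.65% of all genes described. The summed level of the list was 1.29, 3.65 and 2.63 UMIs per 10000 in capillary cells against 10.8, 16.3 and 19.5 in other endothelial cells. The natriuretic peptide receptor Npr3 had 0 UMIs at E16.5 and stood at 0.803 and 0.281 at P0, against 1.63, 3.24 and 2.69. Cytl1, a secreted cytokine-like protein, was 8.05-, 10.7- and 12-fold lower, and the junction adaptor Cgnl1 4.84-, 4.23- and 8.35-fold lower. With every cell thinned to 1000 UMIs, 0 of 56, 0 of 85 and 0 of 41 capillary cells held 2 or more of 7 valve surface genes. In other endothelial cells 9 of 76, 15 of 79 and 8 of 48 did. Without thinning the numbers were 1 of 56, 8 of 85 and 6 of 41 against 27 of 78, 46 of 79 and 26 of 48. Npr3 is 1 of these 7 genes and also counted in the rule that chose both endothelial classes.

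General endothelial genes did not move as 1 block. The tight junction protein Cldn5 was 1.62-fold higher in capillary cells at E16.5 and 5.49- and 4.16-fold higher at P0, and the adhesion molecule Esam 1.08-, 3.45- and 3.09-fold higher. Cdh5, the cadherin of endothelial junctions, was 1.43-, 2.38- and 2.26-fold higher. Plvap, which forms the diaphragms of endothelial pores, was 4.11-, 4.6- and 8.56-fold lower, and the sialomucin Emcn was lower as well, at 1.34, 2.42 and 2.22 against 3.13, 5.22 and 6.9. Cdh5, Esam and Emcn were among the rule's genes. Of 10 junction and permeability genes described, 1 (Jam2) was at least 2-fold higher and 2 (Plvap and Ocln) lower in every library. The shares over all genes described were 2.65 and 4.44%, and Ocln had 0, 2 and 0 UMIs in capillary cells.

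Artery and vein genes were both present. Of 18 listed artery genes, 3 were at least 2-fold higher in 3 of 3 libraries (Sox17, Dll4 and Jag2) and 2 lower (Hey2 and Bmx). The shares over all genes described were 2.65 and 4.44%. In capillary cells Jag2 had 2, 9 and 4 UMIs, Bmx 1, 8 and 1, and Hey2 0, 2 and 0, so their ratios rest on few UMIs. The summed level of the list was 7.06, 12.3 and 11.1 UMIs per 10000 against 6.63, 10.4 and 10.8. The transcription factor Sox17 stood at 0.515, 1.3 and 1.31 against 0, 0.0195 and 0.12. The gap junction protein Gja4 was lower in capillary cells at P0, at 0.643 and 0.563 against 2.16 and 1.32, and level at E16.5, at 1.03 against 0.953. Aplnr, the apelin receptor of veins and of capillary cells, stood at 1.08, 1.9 and 1.38 against 0.272, 0.195 and 0.0401. Nr2f2, the transcription factor of venous identity, was not separated, with ratios of 1.01, 0.974 and 1.34, and the postcapillary genes Ackr1 and Selp had 0 and 1 UMIs in all capillary cells. Lymphatic genes summed to 0.309, 1.14 and 0.625 against 0.545, 2.05 and 1.73, and Prox1 was among the genes lower in capillary cells in every library.

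The leading lower genes, chosen by the size of their ratio, included secreted and matrix proteins. Mgp, an inhibitor of calcification, stood at 2.47, 1.55 and 1.34 UMIs per 10000 against 15.7, 9.59 and 9.43, and the elastic fibre protein Mfap2 at 1.85, 0.701 and 1.31 against 8.58, 5.79 and 6.54. The apolipoprotein Apoe was 8.87-, 7.05- and 4.01-fold lower, the growth factor Mdk 9.69-, 9.92- and 4.11-fold, fibronectin (Fn1) 4.59-, 4.64- and 5.91-fold, and Igfbp5, Cpe and Ece1 between 3.33- and 7.18-fold. The imprinted RNA H19 was 2.82-, 2.94- and 4.72-fold lower at 27.4, 19.9 and 13.8 UMIs per 10000. Basement membrane genes did not share this direction: of 12 described, 2 (Nid2 and Col15a1) were at least 2-fold higher and 1 (Lama5) lower in every library. The shares over all genes described were 2.65 and 4.44%, and Lama5 had 1, 2 and 0 UMIs in capillary cells. The list summed to 45.6, 62.6 and 57.7 UMIs per 10000 against 30.9, 35.4 and 32.9. Of 12 imprinted growth genes, 3 (H19, Igf2 and Igf2r) were lower and 0 higher, against 4.44 and 2.65% of all genes described. Postn and Col3a1, which mark valve interstitial cells, were 6.12-, 7.79- and 6.59-fold and 3.94-, 6.32- and 3.68-fold lower.

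Markers of other cell types moved with these differences, and their part in them was not tested. The 10 interstitial markers summed to 4.17, 3.01 and 5.31 UMIs per 10000 in capillary cells against 18.9, 25.3 and 17.7 in other endothelial cells, and 5 of the 10 were at least 2-fold lower in every library. Without the cells that held 5 or more UMIs of other types' markers, 8291 genes still had enough UMIs to be described. Of the 268 higher genes 145 still passed, and of the 448 lower genes 188. Pericyte and smooth muscle markers were higher in capillary cells, at 2.68, 5.26 and 4.63 against 1.13, 1.17 and 0.802, with Rgs5 and Higd1b higher in every library and Myh11 at 0. Rgs5 came from few cells: 1 of 56, 9 of 85 and 3 of 41 capillary cells had a UMI. Cardiomyocyte markers summed to 5.67, 3.88 and 2 against 29.3, 6.28 and 2.41. Macrophage markers reached 3.75 only in P0 replicate 2, where 1 cell held 117 of the 120 UMIs. With every cell thinned to 1000 UMIs, only 4721 genes had enough UMIs to be described, and 62 of the 268 and 113 of the 448 genes passed. A gene could thus drop out by the UMI limit alone.

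**Figure D2:**
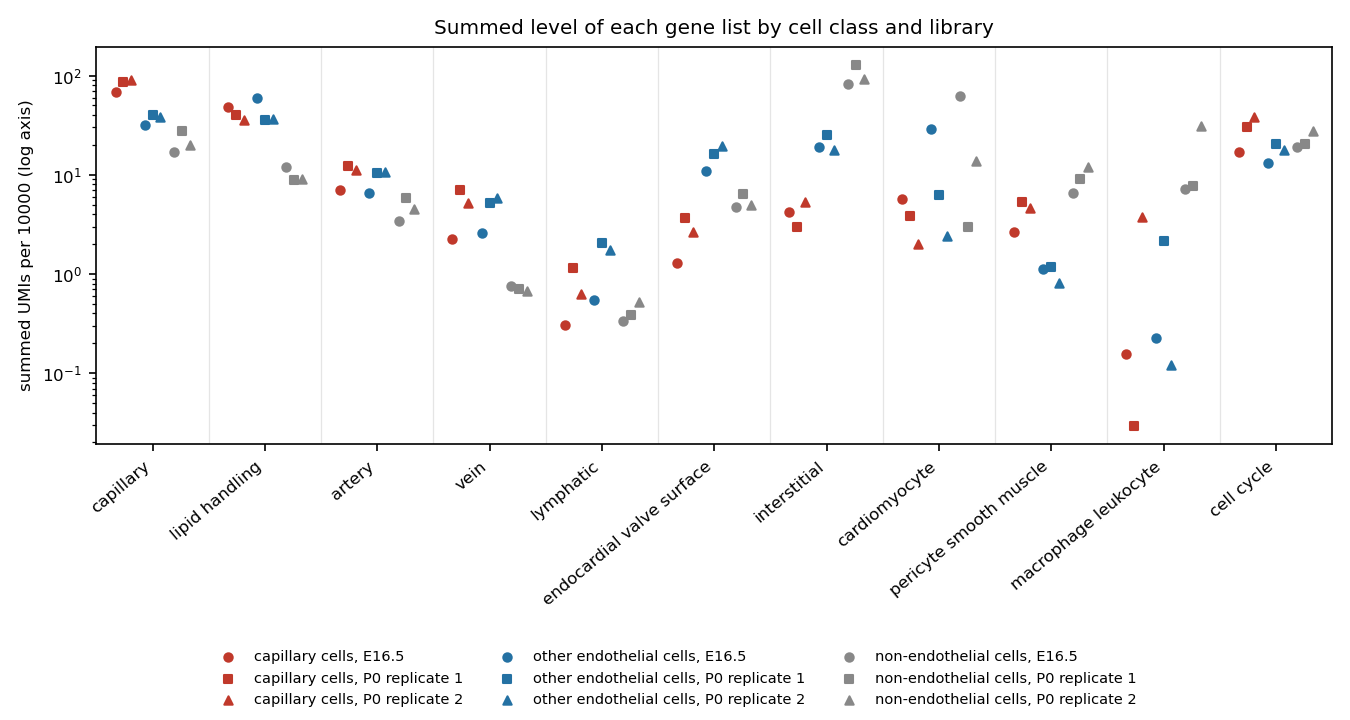
Summed UMIs per 10000 (log axis) of 11 gene lists in capillary (red), other endothelial (blue) and non-endothelial cells (grey), 1 symbol per library. Of the classes, capillary cells lie highest in the capillary list (67.7 to 90.3) and, narrowly, the artery list. They lie lowest in the valve surface (1.29 to 3.65) and interstitial lists. The capillary cells of P0 replicate 2 stand apart from the other capillary cells in the macrophage list.

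Among the capillary cells themselves, Aplnr and the artery genes Gja4 and Sox17 shared 0 cells at E16.5 and some cells at P0; the E16.5 numbers are small. At E16.5, 8 of 56 cells had an Aplnr UMI and 11 a Gja4 UMI, and 0 had both. In P0 replicate 1, 42 of 85 cells had Aplnr and 18 had Gja4, with 4 cells holding both, and in P0 replicate 2 the numbers were 23 and 7 of 41, with 1 cell holding both. Aplnr and Sox17 shared 20 cells in P0 replicate 1, which is 20 of 42 and 20 of 38, and 11 in P0 replicate 2, of 23 and 21. Sox17 and Gja4 shared 4 cells at E16.5, 8 in P0 replicate 1 and 5 in P0 replicate 2. Cells with 3 or more of 14 artery genes, 10 at E16.5, 43 in P0 replicate 1 and 17 in P0 replicate 2, held 56.6, 74.4 and 60.9 Fabp4 UMIs per 10000, against 79, 96.5 and 104 in the other capillary cells. These artery-gene cells were also the deeper ones, with medians of 3792, 8953 and 8272 UMIs against 2912, 5357 and 3375, and the part of depth was not tested.

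Wt1, a transcription factor of the epicardium that is also found in coronary endothelium, was present in 36 of 85 and 13 of 41 capillary cells at P0 and in 3 of 56 at E16.5. Its level was 0.309, 0.847 and 0.844 UMIs per 10000 against 0, 0.0195 and 0.0401 in other endothelial cells. The other listed epicardial genes, Upk3b, Upk1b and Msln, had no UMI in any capillary cell.

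Vwf, a clotting protein stored in larger vessels and endocardium, came from few capillary cells. At P0, 10 of 85 and 5 of 41 had a UMI, and 1 cell held 38 of 73 and 11 of 18 UMIs. Npr3 had UMIs in 11 and 3 capillary cells at P0, of which 5 and 2 also had Vwf.

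Transcripts of cell division were found in more capillary cells than other endothelial cells. With every cell thinned to 1000 UMIs, 16.1, 21.2 and 22% of capillary cells held 2 or more of 11 genes of the G2 and M phases, against 9.21, 7.59 and 8.33% of other endothelial cells and 18.7, 11.8 and 12.5% of cells outside both classes. Without thinning the shares were 33.9, 40 and 41.5% against 16.7, 17.7 and 16.7%. When the capillary rule was applied to the thinned counts, the shares were 15.2, 21.3 and 25% against 6.56, 8.57 and 7.32%. The difference from other endothelial cells thus had the same direction in the 3 libraries, while the order against the remaining cells turned at E16.5. These shares count transcripts and are not cell cycle phases.

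**Figure D3:**
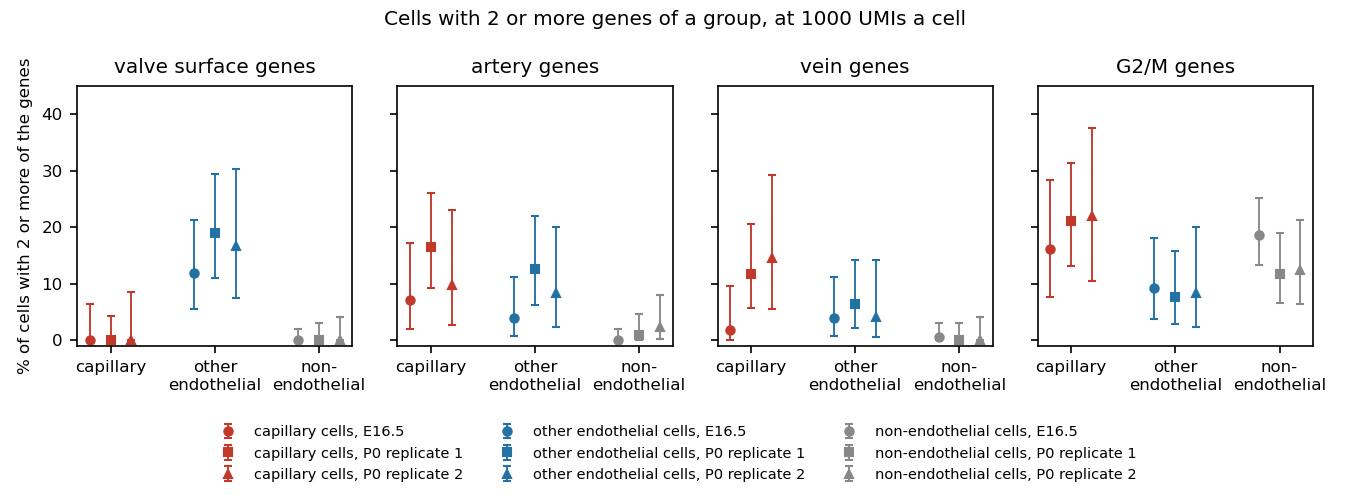
Percent of cells with 2 or more genes of 4 gene groups, every cell thinned to 1000 UMIs, by class and library; bars are exact binomial 95% intervals and cover counting error only. At this depth no capillary cell held 2 or more valve surface genes, whereas without thinning 1 of 56, 8 of 85 and 6 of 41 did. That group includes Npr3, a gene of the rule. At 1000 UMIs, 16.1 to 22% of capillary cells held 2 or more G2/M genes against 7.59 to 9.21% of other endothelial cells.

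Capillary cells made up 41.8% of endothelial cells at E16.5 (exact Clopper-Pearson 95% interval 33.3 to 50.6), 51.8% in P0 replicate 1 (43.9 to 59.7) and 46.1% in P0 replicate 2 (35.4 to 57). Of all kept cells they were 17.7% (13.7 to 22.4), 30% (24.8 to 35.7) and 23.2% (17.2 to 30.1). The E16.5 cells were shallower, and with every cell thinned to 1000 UMIs and the rule applied again the shares of endothelial cells were 35.1, 40.2 and 40.6%. For the share of endothelial cells the intervals of the 3 libraries overlapped in both of these settings. For the share of kept cells without thinning, those of E16.5 and P0 replicate 1 did not overlap, while P0 replicate 2 overlapped both. With thinning the shares of kept cells were 10.5% (7.35 to 14.4), 16.6% (12.5 to 21.5) and 15.8% (10.8 to 22), and their intervals overlapped. All these intervals cover counting error only. With 1 library at E16.5 the stage difference in either share was not tested. The shares also rest on the dissection and the sort. At E9.5, 2 of 1199 kept cells (0.167%) passed the same rule, with a median of 32150.5 UMIs per cell. With every cell thinned to 1000 UMIs, 0 passed there.

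The comparison of E16.5 with P0 asked how these cells change from the fetal to the newborn valve. Fetal capillary cells held more RNA of respiratory chain genes and of the surface genes Icam2 and Ramp2. They held less of Lpl, Meox2, Tcf15, the class I heavy chain genes H2-D1 and H2-K1, and the immediate early gene Junb. Which way endothelial identity genes moved as a list depended on the scaling, and the surface genes Nrp1, Nrp2 and F11r were lower. UMI sums were tested with edgeR's quasi-likelihood test with TMM scaling and Benjamini-Hochberg adjustment over 3384 genes, a call needing adjusted p below 0.05 and a scaled E16.5 level outside both P0 levels. Of these genes 688 (20.3%) were called higher at E16.5 and 571 (16.9%) lower, and 677 (17.2%) and 573 (14.5%) of 3946 genes in other endothelial cells, so stage calls were frequent in both classes. The shares of 20.3 and 16.9% are the ones to set beside each list count below. All log2 folds below are E16.5 minus P0 on the TMM scale, with standard errors (SE), where the median over all tested genes was -0.21.

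The single E16.5 library was assumed to vary like the P0 libraries, with 1 residual degree of freedom, and stage cannot be told apart from what else differs between the libraries. Scaling by library totals moved the median to -0.97, a shift of -0.75, and called 389 genes higher and 1518 lower, and DESeq2 called 418 and 80. With every cell thinned to 1000 UMIs, 204 and 198 of 858 genes were called. Of the genes named here, 30 lost the call with DESeq2, whose adjusted p for them ranged from 0.0509 (H2-K1) to 0.468 (Hes1), and they include Tcf15 (0.206), Sparc, Ly6a, Ly6c1, Gja4, Cxcl12, Nrp1, Nrp2, Tie1, Fli1, F11r, Nos3, Id1, Id2, Id3, Pgk1, Egr1 and Cenpf.

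Lipid handling genes did not move together. Of 9 tested, 2 rose at E16.5 and 4 fell (median -1.02), against 20.3 and 16.9% of all genes tested. With library totals 2 rose and 6 fell, and with DESeq2 2 rose and 1 fell. Lpl had 1 UMI in the 56 fetal cells and 138 and 53 at P0, that is 0.0515 UMIs per 10000 against 2.02 and 1.66, a ratio of shares of 0.0271 (95% interval 0.000683 to 0.153; adjusted p = 0.00032). The low fetal Lpl was shared by the other classes, at 0.0454 against 0.702 and 0.481 in other endothelial cells and 0.224 against 2.16 and 2 in non-endothelial cells. Its inhibitor Angptl4 also had 1 UMI there against 69 and 21, a ratio of 0.0575 (0.00144 to 0.329; adjusted p = 0.013). Meox2 had 1 against 86 and 16, a ratio of 0.0508 (0.00127 to 0.289; adjusted p = 0.032). Tcf15, the partner of Meox2, fell from 4.53 ± 0.227 (SD, n = 2) at P0 to 1.39 at E16.5, a log2 fold of -1.02 (SE 0.26, adjusted p = 0.0088).

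Fabp5 and Rbp7 were the genes of this list that rose. Fabp5 stood at 35.2 at E16.5 against 22.1 and 18.3 (log2 fold 1.48, SE 0.15, adjusted p = 1.4e-05), and Rbp7 at 8.6 against 3.53 and 4.84 (1.73, SE 0.22, adjusted p = 7.7e-05). Both fetal levels lay above both P0 levels. Mgll did not pass, at 1.49 against 2.91 and 2.81 (log2 fold -0.26, adjusted p = 0.43). Of the rule's genes, described only, Gpihbp1 was higher at E16.5 (log2 fold 1.30), Fabp4 differed by 0.58 and Cd36 by -0.40; with library totals Fabp4 turned to -0.18. Of 6 tested genes of fatty acid oxidation, 1 rose (Etfb, 1.02) and 0 fell.

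**Figure D4:**
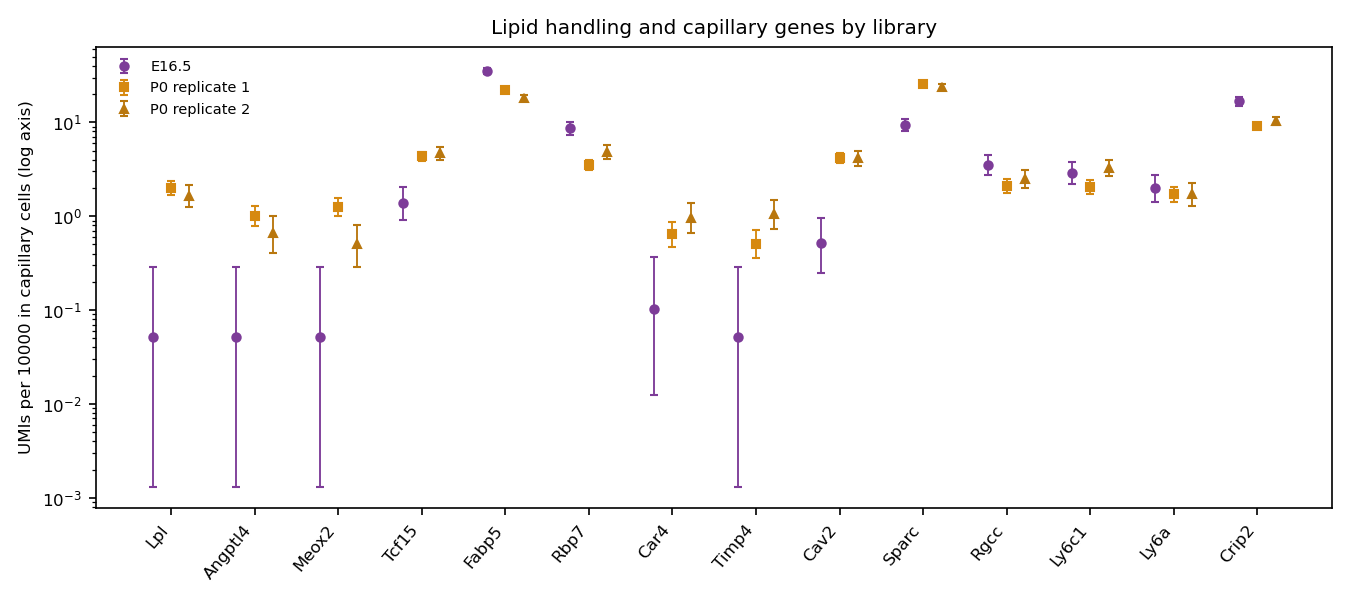
UMIs per 10000 (log axis) in capillary cells of each library for 14 lipid handling and capillary genes, with exact Poisson 95% intervals for counting error. Lpl, Angptl4, Meox2 and Timp4 rest on 1 UMI at E16.5, and Fabp5, Rbp7 and Crip2 lie above both P0 libraries there.

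Of 18 tested capillary genes, 5 rose, Rbp7 among them, and 4 fell at E16.5 (median 0.05), against 20.3 and 16.9% of all genes tested. With library totals 3 rose and 9 fell. Crip2, a LIM domain protein, stood at 16.8 against 9.21 and 10.3 (log2 fold 1.46, SE 0.16), Rgcc at 3.5 against 2.1 and 2.5 (1.30, SE 0.22, adjusted p = 0.00087), and Ly6a at 2.01 against 1.72 and 1.72 (0.90, SE 0.26). The share of Ly6c1 at E16.5, 2.89, lay between 2.04 and 3.25, and its call (0.85, adjusted p = 0.04) rests on the TMM scale. Cav2, which forms caveolae with Cav1, fell to 0.515 from 4.19 and 4.13 (-2.33, SE 0.32, adjusted p = 0.00014), whereas Cav1 itself did not pass, at 11.2 against 16.1 and 15.6 (0.18). Sparc, a matricellular protein, fell to 9.38 from 25.5 and 23.9 (-0.72, SE 0.16). Car4 had 2 UMIs at E16.5 against 44 and 31, a ratio of 0.138 (0.0164 to 0.516; adjusted p = 0.046), and Timp4 had 1 against 35 and 34, a ratio of 0.075 (0.00187 to 0.432; adjusted p = 0.047). DESeq2's filter left Car4, Timp4, Meox2, Angptl4, Vwf, Pcna and Psmb8 without an adjusted p, so their calls have no counterpart there. Among leading genes of the class, Tmem88 (2.42, SE 0.22) and Gng11 (1.60, SE 0.14) rose, and Sparcl1 rose by 0.68 on the TMM scale and turned to -0.08 with library totals.

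Artery and vein genes were called about as often as all genes tested (37.2% in either direction). Of 10 artery genes tested, 1 rose (Gja4, 1.03 against 0.643 and 0.563; 1.42, SE 0.38, adjusted p = 0.013) and 2 fell. The chemokine Cxcl12 fell to 0.361 from 1.65 and 1.81 (-1.57, SE 0.40, adjusted p = 0.0096), but 1 cell of P0 replicate 2 held 46 of its 58 UMIs there. The semaphorin and VEGF co-receptor Nrp1 fell to 1.13 from 4.4 and 3.28 (-1.11, SE 0.31, adjusted p = 0.016). With library totals 0 artery genes rose and 4 fell, and DESeq2 called 0. Of 5 vein genes, 0 rose and 2 fell: Nrp2, to 0.206 from 1.58 and 1.38 (-2.18, SE 0.49, adjusted p = 0.0048), and Vwf, with 1 UMI against 73 and 18, a ratio of 0.0569 (0.00142 to 0.325). Aplnr did not pass (0.03, and -0.73 with library totals). The VEGF receptor Kdr stood at 1.8 against 4.07 and 4.09 and did not pass (-0.50, adjusted p = 0.12), and of 7 tip cell and angiogenesis genes 0 passed in either direction. Of 6 Notch pathway genes, 1 fell, the target Hes1 (-0.89, SE 0.32, adjusted p = 0.045).

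Of 21 endothelial identity genes tested, 6 rose and 1 fell on the TMM scale (median 0.14). Egfl7 and Ecscr, 2 of the 6, are genes of the rule, and without them the share that rose is near the 20.3% of all genes. With library totals 2 rose and 10 fell. The adhesion molecule Icam2 rose to 7.52 from 3.18 and 3.59 (1.83, SE 0.20, adjusted p = 2.5e-05), Ramp2, a co-receptor for adrenomedullin, to 7.93 from 5.93 and 5.84 (1.10, SE 0.19), and the receptor Tie1 to 2.22 from 1.65 and 1.78 (1.05, SE 0.25; -0.01 in thinned cells). The transcription factor Fli1 fell to 0.618 from 3.21 and 3.22 (-1.70, SE 0.32, adjusted p = 0.0014; 0.067 with DESeq2). Of 8 junction genes, 0 rose and 1 fell (F11r, an adhesion molecule of tight junctions, -1.82, SE 0.41), and Cldn5 did not pass, at 3.61 against 8.56 and 7.84 (-0.51, adjusted p = 0.077). Among 6 flow-responsive genes, endothelial nitric oxide synthase (Nos3) rose to 1.08 from 0.584 and 0.563 (1.58, SE 0.38) and 0 fell.

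On the TMM scale, genes of BMP signalling and of the basement membrane rose more often than they fell, and with library totals they did not. Over all genes tested 20.3% rose and 16.9% fell on the TMM scale. Of 7 BMP and Id genes, 3 rose and 1 fell (median 0.82), and with library totals 1 and 1. Id3, a target of BMP signals, stood at 13.2 against 6.82 and 11.6 (1.22, SE 0.25), while the share of Id1 at E16.5, 3.19, lay between the P0 values of 2.26 and 3.47 (0.87, SE 0.27). Id2 had 3 UMIs in the fetal cells against 86 and 41, a ratio of 0.122 (0.0249 to 0.366; adjusted p = 0.005). Of 11 basement membrane genes, 5 rose and 1 fell (median 0.62), and with library totals 1 and 3. Col18a1, the source of endostatin, stood at 5.51 against 3.31 and 2.09 (1.66, SE 0.27, adjusted p = 0.00049) and Col4a2 at 7.52 against 7.46 and 6 (0.83, SE 0.20). Lama4 rose by 1.02 (SE 0.35) and turned to -0.25 in thinned cells.

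Nearly all respiratory chain genes were higher in fetal capillary cells: 16 of 17 rose, 0 fell, and the median log2 fold was 1.87 against -0.21 over all genes tested. With library totals 13 rose and 1 fell, and with DESeq2 14 rose. Uqcr11, a subunit of complex III, stood at 22.7 UMIs per 10000 against 5.65 and 5.09 (2.75, SE 0.16, adjusted p = 2.5e-07), and Atp5j2, a subunit of ATP synthase, at 24.5 against 6.7 and 6.41 (2.57, SE 0.15). Atp5b did not pass (-0.05). The other endothelial cells showed 15 of 17 higher with a median of 1.78, and the summed level was 267, 114 and 112 in capillary cells, 256, 101 and 108 in other endothelial cells and 272, 96.4 and 117 in the remaining cells. Ribosomal protein RNA, given above, was higher at E16.5 in the same 3 classes. Of 9 glycolysis genes, 1 rose (Aldoa, 1.01, SE 0.21) and 1 fell (Pgk1, -2.36, SE 0.54).

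Class I heavy chain genes were lower in fetal capillary cells, while the wider list moved both ways. Of 12 tested antigen presentation and interferon genes, 3 rose and 4 fell, against 20.3 and 16.9% of all genes tested. With DESeq2 1 rose and 1 fell. H2-D1, a class I heavy chain, fell to 0.979 from 8.4 and 7.06 (-2.31, SE 0.29, adjusted p = 6.9e-05; 0.00011 with DESeq2), and H2-K1 had 3 UMIs against 125 and 56, a ratio of 0.0858 (0.0175 to 0.255; adjusted p = 0.00088). H2-D1 and H2-K1 belong to a family of near-identical genes, so reads can be split between members. Psmb8, a subunit of the immunoproteasome, had 0 UMIs against 32 and 17 and was at least 3.15-fold lower (bound at 3 UMIs; adjusted p = 0.043). Its shares at P0 were 0.467 and 0.531, and only P0 replicate 2 reached the limit for testing. There 1 cell held 11 of the 17 UMIs, so its call rests on that cell. Bst2, a membrane protein induced by interferon, also fell (-1.07, SE 0.30). Ifitm2 rose to 17.1 from 9 and 10.6 (1.48, SE 0.16), Ly6a rose as given above, and B2m rose by 0.59 (SE 0.19) at shares of 7.83, 8.89 and 7.63.

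Imprinted and cell cycle genes moved in both directions, as did all genes tested, of which 20.3% rose and 16.9% fell. Of 12 imprinted growth genes, 2 rose and 1 fell: H19 stood at 27.4 against 19.9 and 13.8 (1.37, SE 0.19, adjusted p = 0.0002), Mest rose by 0.58 on the TMM scale (-0.18 with library totals), and Cdkn1c, an inhibitor of the cell cycle, fell to 0.412 from 2.57 and 2.94 (-2.05, SE 0.37). Of 18 cell cycle genes, 2 rose (Ube2c, 1.44, SE 0.34; Tubb4b, 1.27, SE 0.25) and 3 fell. Hmgb2 fell to 2.94 from 12.6 and 16.3 (-1.61, SE 0.23, adjusted p = 0.0002), Cenpf had 1 UMI against 85 and 56, a ratio of 0.0367 (0.000923 to 0.208), and Pcna had 1 against 49 and 30, a ratio of 0.0655 (0.00164 to 0.376). Of 13 immediate early and stress genes, which dissociation can induce, 0 rose and 5 fell, 8 did not pass and DESeq2 called 1 lower (Junb), with Junb at -2.41 (SE 0.34) and Egr1 at -1.68 (SE 0.34), and in other endothelial cells 0 rose and 6 of 12 fell.

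Markers of other cell types also differed by stage within the capillary class. The pericyte gene Rgs5 was lower at E16.5 (-2.44, SE 0.46), with 5 UMIs in 1 cell at E16.5 against 169 UMIs in 9 cells and 62 in 3 cells, and Higd1b rose (2.30, SE 0.34), with 31 UMIs in 2 cells against 32 in 5 and 19 in 3. The cardiomyocyte genes Myl3 (1.38, SE 0.49) and Myl7 rose. Of 4 interstitial genes tested, 0 passed. Leaving out cells with 5 or more UMIs of such markers gave 617 higher and 519 lower calls in place of 688 and 571.

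The largest stage differences did not follow the capillary gene lists. By fold, the 10 leading rises were Gata3, Gm6525, Hist1h2al, Fam221b, Gm5449, Gm17430, Gm5426, Myl7, Ptgfrn and Gm26619. Gata3, a transcription factor, had 38 UMIs at E16.5 against 0 and 1, a ratio of 197 (33.2 to 7972). Gm6525 had 87 against 5 and 2, a ratio of 64.3. The 5 Gm entries are predicted genes and Hist1h2al has close paralogs, so reads counted to them can come from near-identical copies. The 10 leading falls, Ktn1, Zbtb20, Ttc14, Bclaf1, Gm5611, Csnk2a1, Cd2ap, Krcc1, Ppp2r2a and Vgll4, all had 0 UMIs in the fetal capillary cells. Ktn1, a kinesin-binding membrane protein, had 115 and 58 UMIs at P0 and was at least 11.1-fold lower, and the transcriptional repressor Zbtb20 had 89 and 50 and was at least 8.95-fold lower (bounds at 3 UMIs). In other endothelial cells the 9 rises that passed and all 10 falls were called in the same direction; Gm26619 did not pass there.

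**Figure D5:**
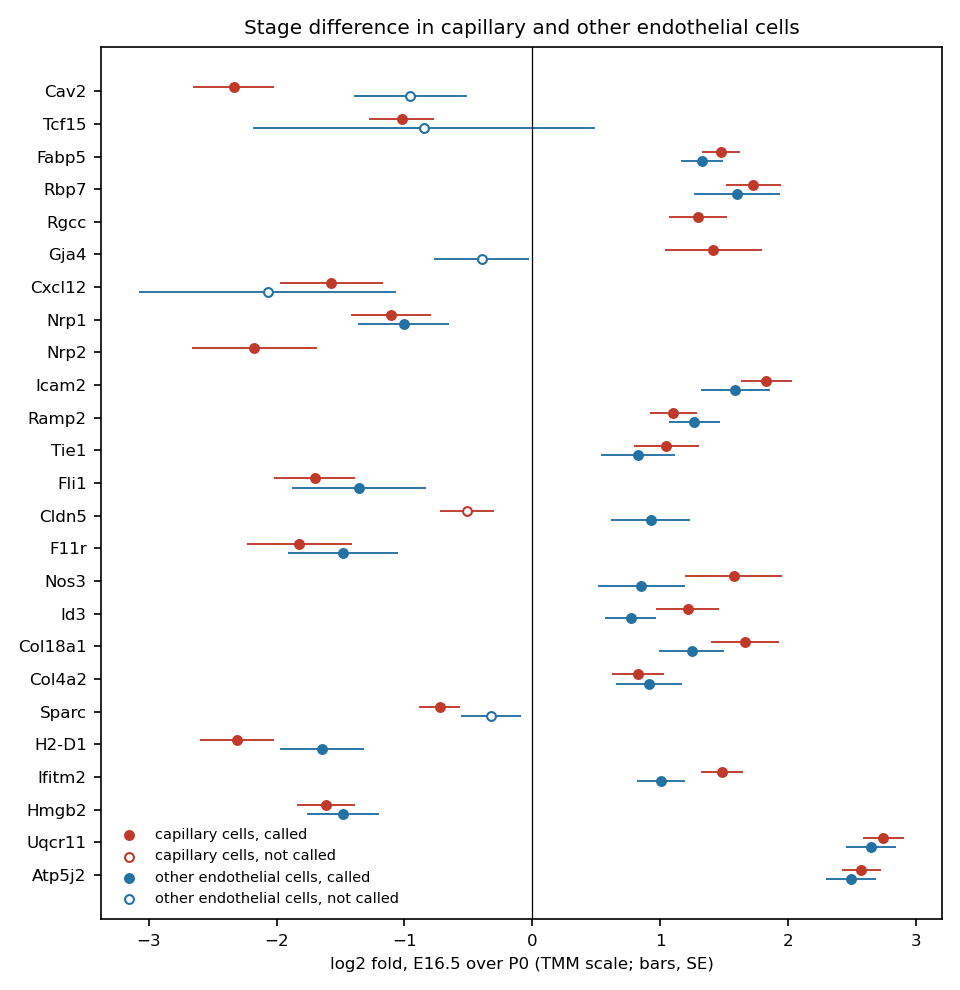
Log2 fold of E16.5 over P0 on the TMM scale (bars, SE) for 25 genes in capillary cells (red) and other endothelial cells (blue); filled symbols were called and Rgcc and Nrp2 were not tested in other endothelial cells. Most genes lie on the same side of 0 in both classes, and Gja4 and Cldn5 lie on opposite sides.

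Whether the stage difference of capillary cells departs from that of other endothelial cells was tested as an interaction over 6 sums with the library as a block. Of 4057 genes, 0 were called by edgeR at adjusted p below 0.05 (0%), with a smallest adjusted p of 0.534; 329 (8.11%) had an unadjusted p below 0.05, and DESeq2 called 0. The 3 genes with the smallest p were Ccdc34, Ctla2a and Mgst3. Ccdc34, a coiled-coil protein, had 1 UMI in fetal capillary cells (0.0515 per 10000) against 1.27 and 1.41 at P0, while other endothelial cells held 0.59, 0.585 and 0.642 (interaction log2 -4.41, unadjusted p = 0.00047). Ctla2a, a protease inhibitor, stood at 5.1, 6.34 and 5.22 in capillary cells and at 5.31, 13.6 and 13.1 in other endothelial cells (1.32, unadjusted p = 0.00066). The glutathione transferase Mgst3 stood at 2.78, 0.482 and 0.5 against 0.817, 0.663 and 0.441 (2.18, unadjusted p = 0.00067). Ctla2a was called among cells with all 3 capillary genes (interaction log2 1.58, adjusted p = 0.0022) and with at least 1000 genes (1.57, adjusted p = 0.0143), and Ccdc34 in the latter (adjusted p = 0.0187). The low fetal level of Cldn5 in capillary cells (3.61 against 8.56 and 7.84) beside an even level in other endothelial cells (2.22 against 1.56 and 1.89) was called only among cells with all 3 capillary genes (interaction log2 -1.77, adjusted p = 0.0065) or with at least 1000 genes (-2.01, adjusted p = 0.0025), and not by the design as fixed.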

How the data were processed

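Mitral valve cells were profiled by droplet-based RNA sequencing from the 3' end. The deposited matrices hold raw UMI counts per gene and cell, made by the authors with Cell Ranger 2.1.1 on mm10, per the submitters' processing notes. The E16.5 stage was taken from the sample title, because its age label is misspelled. The barcode lists of the P0 samples carry each other's lengths (211 and 291), so cells were taken by matrix column. Spreadsheet dates replaced 15 gene symbols.

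UMIs were summed per library and class and tested with edgeR 4.0.16 in R 4.3.3 (TMM, quasi-likelihood test, Benjamini-Hochberg adjustment over all genes tested). A gene was tested when its UMI share in at least 1 sum reached that of 10 UMIs in the smallest sum. Genes high at 1 stage only could thus enter the test. Every adjusted p printed for a stage or interaction difference is from edgeR's quasi-likelihood test unless DESeq2 (1.42.0) is named. Ratios of shares and Poisson or binomial intervals (95%) cover counting error only. Members, gene lists and named genes were chosen with earlier results of these data known. Named genes were those of the rule, up to 4 per list by call and fold, the 12 leading genes in each direction between classes, the 10 leading rises and falls by stage, and the 3 smallest interaction p; further genes named in group descriptions were chosen after their values were seen. Doublets were marked with scrublet (scanpy 1.11.5) and kept in the counts reported, with a fit without them as an alternative. On simulated counts, tested over 10 draws, the stage fit recovered 75.5% of genes changed 4-fold and 24.6% of those changed 2-fold, and the interaction fit 48.5% and 9.51%. The simulation gave all genes the same variability and counted recovery by adjusted p alone, without the condition on the P0 levels. These shares thus do not give the recovery of the stage calls reported. Alternatives were DESeq2, library totals, no filter, all 3 capillary genes, at least 1000 genes, thinning and leaving out libraries or cells.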

Additional observations from a re-analysis of the deposited data

Results flagged for a closer look

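Ccdc34 stood out because the ratio of capillary to other endothelial cells differed in direction between the stages. It was 0.0873 at E16.5, resting on 1 UMI in capillary cells, and 2.17 and 2.19 in the P0 libraries. The interaction had an unadjusted p of 0.00047 and an adjusted p of 0.534 (edgeR, quasi-likelihood, Benjamini-Hochberg), so it was not called. It was called among cells with at least 1000 genes (adjusted p = 0.0187), 1 of the alternatives run.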

How the results depend on the processing

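No paired analysis was possible because E16.5 has a single library, so the stages share fewer than 2 replicate numbers. Of the stage calls in capillary cells (688 higher, 571 lower), DESeq2 left 418 and 80, library totals gave 389 and 1518, cells with at least 1000 genes 435 and 407, and thinning to 1000 UMIs, chosen after seeing the data, 204 and 198 with fewer genes tested. Apart from these fits the counts stayed within 1.5 times, from 490 (lower, all 3 capillary genes) to 773 (lower, no filter). With library totals the log2 folds of Aplnr (-0.73), Gapdh (-0.74), Mest (-0.18), Igf2 (-0.46), Sparcl1 (-0.080) and Ly6e (-0.56) changed sign, and in thinned cells those of Tie1 (-0.014), Lama4 (-0.25) and Ly6c1 (-0.13); the cause was not tested. The interaction gave 0 calls except with all 3 capillary genes (1 higher, 1 lower), at least 1000 genes (2 and 7), and without cells carrying other types' markers, chosen after seeing the data (0 and 1). Genes at least 2-fold apart in every library numbered 126 higher and 196 lower of 4721 described after thinning. Without cells carrying other types' markers, 284 of 8291 were lower. Leaving out 1 P0 library gave 375 to 406 higher and 603 to 673 lower, with fewer libraries to pass, the larger values without P0 replicate 2. Requiring all 3 genes moved the share of endothelial cells to 26.1% at E16.5 and 41.5% in P0 replicate 1, and thinning moved the latter to 40.2%. Without a P0 library no residual degree of freedom is left, so only folds were compared: 26 of the 127 named genes moved by more than the spread without replicate 1 and 15 without replicate 2. Depth limits the E16.5 values, where many genes rest on 3 or fewer UMIs.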
